A study of Mus musculus with 18 samples.

Results

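The transcriptome of bone marrow regulatory T (Treg) cells was compared with that of lymph node Treg cells, using the 3 bone marrow and the 3 lymph node libraries of a series of 18 libraries from 6 organs of the mouse. Both groups are poly(A) RNA of Treg cells that were sorted fresh, as CD4-positive and Foxp3-positive cells, from wild-type animals that had received no treatment; genotype and treatment are shared by all 18 libraries. The labels used here give no strain, age, sex, lymph node site, sort gate or number of animals, and they do not say whether replicates came from separate mice. P-values therefore measure only the spread between these libraries, which may be technical. Values are in TPM, a length-corrected share of the library's RNA scaled to a fixed total, for 55487 genes.

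Treg cells restrain other immune cells and depend on the transcription factor Foxp3 and on the interleukin 2 receptor. They enter lymph nodes from the blood with the help of the chemokine receptor CCR7, and they leave through the sphingosine phosphate receptor S1PR1. Bone marrow retains lymphocytes and progenitors through stromal CXCL12 and its receptor CXCR4, and its Treg cells are known for sitting near haematopoietic stem cells; the same tissue produces neutrophils, monocytes, red cells, platelets and B cells.

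The label was checked against marker genes first. Foxp3 (ENSMUSG00000039521) was present in every library, at 148, 150.3 and 144 TPM in the bone marrow libraries and 239, 236 and 240.3 TPM in the lymph node libraries. The 20 general T cell genes, which encode the CD3 complex and its signalling partners, summed to 5082 to 5193 TPM in bone marrow and to 7771 to 7846 TPM in lymph node, without overlap. By the test described below, 24.1% of all genes tested were lower in bone marrow and 24.8% higher. The median difference over all genes tested was -0.026 on the log2(TPM + 1) scale. Of the 20 T cell genes, 19 were lower in bone marrow and 1 was higher, with a median of -0.68. The exception was Sit1, an adaptor of the antigen receptor, with 94.5 ± 2.61 TPM in bone marrow and 68.1 ± 4.39 in lymph node (mean ± SD, n = 3, as in all such pairs here).

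Markers of other blood cells were also present in the bone marrow libraries. Mature neutrophil genes summed to 35485 to 35815 TPM (10 genes, 3.57% of all TPM) against 42.3 to 82.5 TPM in lymph node. Granule genes of maturing neutrophils summed to 13742 to 13951 TPM (10 genes) against 8.23 to 27.2 TPM, and erythroid genes to 6800.2 to 6995 TPM (13 genes) against 142 to 146 TPM. In these 3 lists the groups did not overlap.

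Other lists of the marrow's cell types were higher in bone marrow as well. Monocyte and macrophage genes (12) summed to 3740 to 3821 TPM in bone marrow and 401 to 412 TPM in lymph node, where most of the sum was Ctss, a cathepsin that T cells also express (227 ± 10.8 TPM in bone marrow and 336 ± 3.96 in lymph node). For eosinophil, basophil and mast cell genes (12) the sums were 465 to 470.3 and 0.38 to 1.65 TPM, for B cell genes (10) 577 to 603 and 172 to 179 TPM, and for B cell precursor genes (10) 429 to 459.6 and 203 to 216 TPM. Nearly all of the last sum in lymph node was Lef1 (139 TPM) and Il7r (66.4 TPM), which T cells express. In bone marrow Lef1 (58.6 TPM) and Il7r (235 TPM) made up most of that sum too. Stem and progenitor genes (10) stood at 56.8 to 63.3 and 12.6 to 14.3 TPM, platelet genes (7) at 71.9 to 85.7 and 2.57 to 7.63 TPM, and dendritic cell genes (12) at 1125 to 1151 and 513 to 519 TPM. Bglap, the bone matrix protein osteocalcin, was listed at 0 in every lymph node library and at 16.1 TPM in bone marrow. Cytotoxic cell genes (12) summed to 400.2 to 422 TPM in bone marrow and 123 to 139.6 TPM in lymph node. Most of the bone marrow sum was Ccl5 (310 ± 14.7 TPM in bone marrow and 36.5 ± 3.55 in lymph node). Of the 12 genes, 5 were higher, 3 lower and 4 not called, where 24.8% of all genes tested were higher and 24.1% lower. The CD8 coreceptor chain Cd8a was lower in bone marrow (4.59 ± 1.08 TPM in bone marrow and 18.8 ± 0.695 in lymph node). Plasma cell genes (10) summed to 1363 to 1374 and 591 to 597 TPM. Endothelium and stroma genes (14) summed to 124 to 129.97 and 99.95 to 106 TPM, mostly from Pecam1, an adhesion molecule that T cells also express (68.5 ± 1.25 TPM in bone marrow and 101 ± 3.32 in lymph node).

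**Figure D1:**
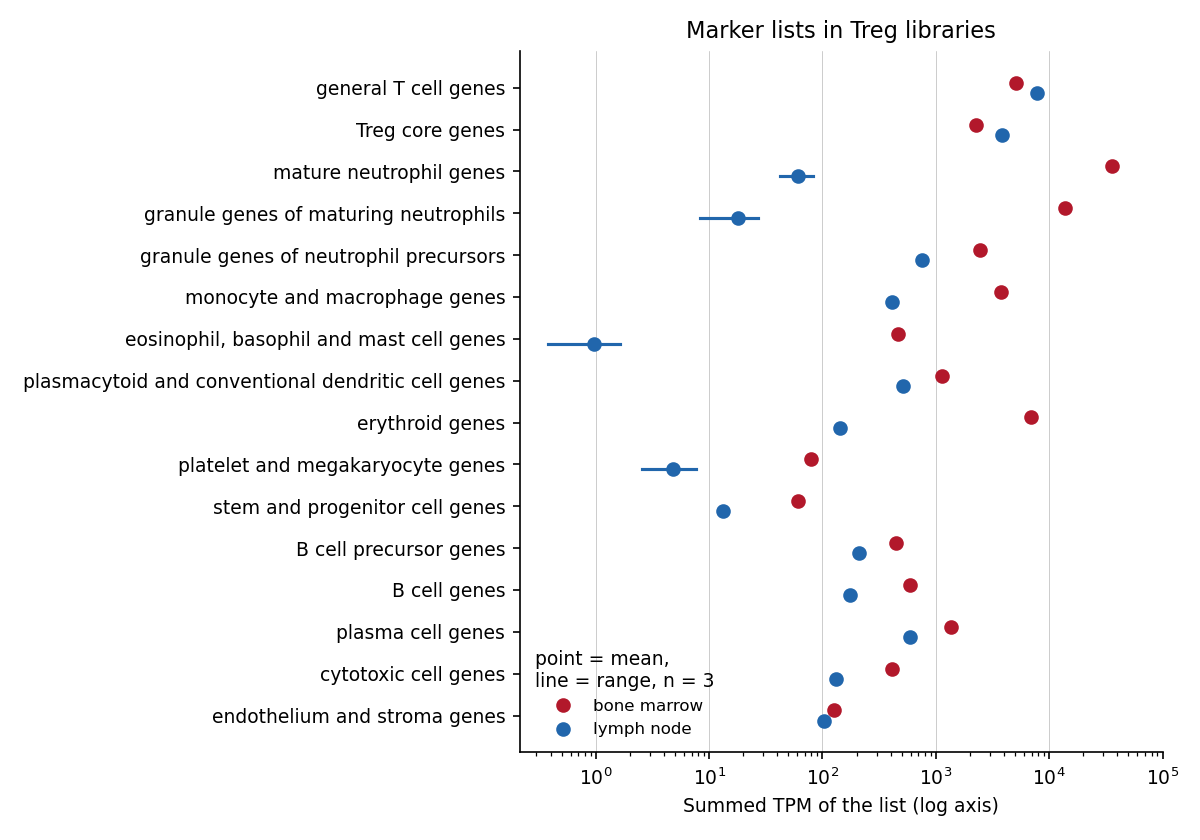
Summed TPM (log axis) of 16 marker lists in the bone marrow (red) and lymph node (blue) libraries; points are means of 3 libraries and lines their range. Bone marrow lies to the right for each non-T lineage drawn. Its highest sum is that of mature neutrophil genes (35705 against 61.2 TPM). The widest gap is that of granule genes of maturing neutrophils (13861 against 18.1 TPM). Bone marrow lies to the left for general T cell (5127 against 7813 TPM) and Treg core genes (2274 against 3807 TPM).

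Because TPM is a share, RNA of another kind in a library lowers every other gene. Differences are given as deposited, and for most genes named with a test also after each library was scaled to the geometric mean of the 20 general T cell genes, called T cell scaling below. In genes of at least 10 TPM in both groups this scaling raised the log2 difference by a median of 0.57 (0.19 to 0.59 over 8046 genes). Within a library it multiplies every gene by the same factor and removes no RNA of other cells. For genes that other cells make, the scaled value is not an estimate for Treg cells alone. In bulk libraries, fewer cells of a type and less RNA per cell cannot be told apart. The replicates were close: the median coefficient of variation of genes of at least 100 TPM was 3.23% in bone marrow and 2.55% in lymph node. Between 18985 and 19797 genes were above 0 TPM in the 6 libraries, and the number of reads behind a value is not known from TPM.

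The test covered 14615 genes whose average reached 1 TPM in bone marrow or in lymph node. Of these, limma called 3627 higher (24.8%) and 3524 lower (24.1%) in bone marrow at an adjusted p under 0.05, or 48.9% in either direction, the background against which each list is read below. By at least 1 log2 unit, 1749 were higher and 453 lower. T cell scaling moved the median over all genes from -0.026 to 0.51 and the split to 9872 higher (67.5%) and 703 lower (4.81%). List values given after T cell scaling are read against that split and median. All 3627 genes called higher as deposited were also called higher after T cell scaling. That outcome was close to fixed in advance, because the scaling moves differences upward. It multiplied bone marrow libraries by 1.24 to 1.26 and lymph node libraries by 0.82 to 0.85. Among the 3524 called lower, 703 stayed lower and 1362 turned higher. Removing mitochondrial, ribosomal protein, haemoglobin and immunoglobulin genes and rescaling the rest gave 2997 higher and 4859 lower, and median ratio scaling gave 4176 higher and 2747 lower.

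Ribosomal protein genes, which are among the most abundant, took 17.4% to 17.6% of TPM in bone marrow and 24.1% in each lymph node library.

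**Figure D2:**
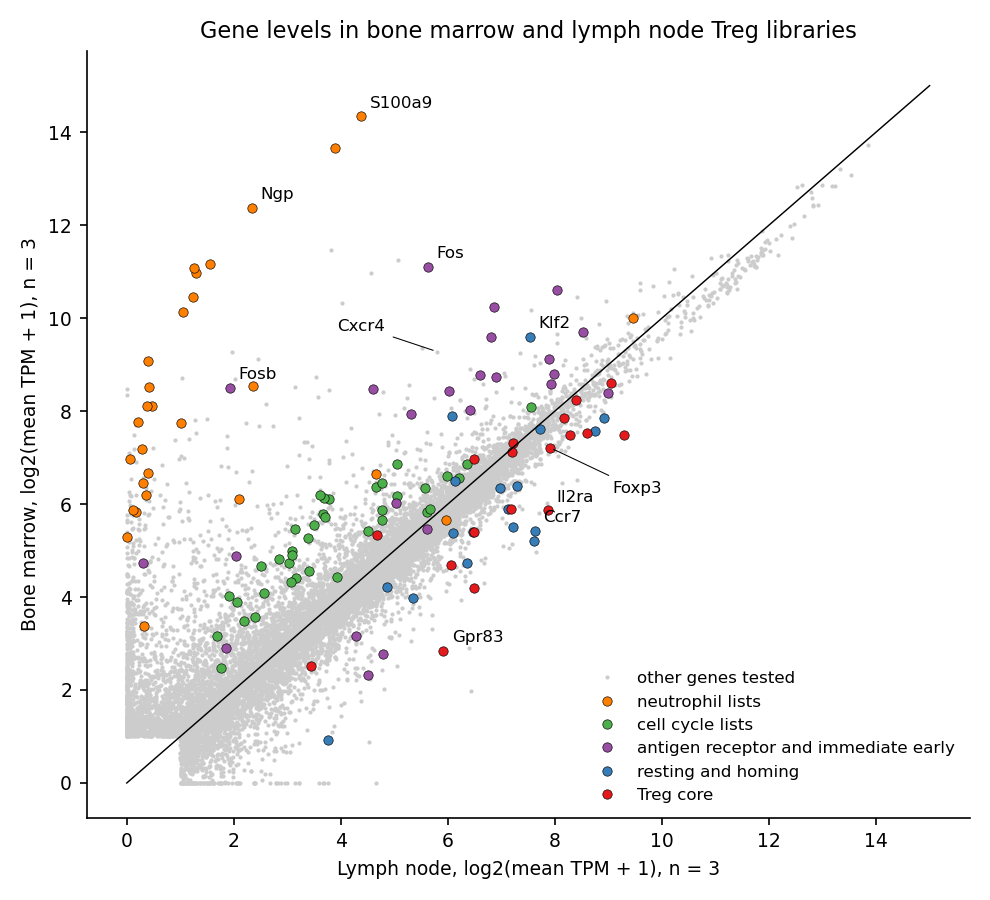
Mean level of each of the 14615 genes tested, log2(mean TPM + 1), in lymph node (x axis) and bone marrow (y axis), n = 3 libraries each; colours mark 5 groups of listed genes and the line marks equal levels. Most neutrophil genes lie along the upper left, cell cycle genes above the line, and most Treg core and homing genes below it.

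Homing receptors separated the groups in both directions. Cxcr4 (ENSMUSG00000045382), the receptor for marrow CXCL12, stood at 639.8, 606 and 613 TPM in the bone marrow libraries and 52.7, 57.5 and 53.7 TPM in the lymph node libraries. The lowest bone marrow library exceeded the highest lymph node library, and the mean was 11.3 times higher (log2 difference 3.48, SE 0.042, limma adjusted p 1.56e-08; 4.06 after T cell scaling). Bone marrow also held the highest Cxcr4 mean of the 6 organs, next to liver (577 TPM), lung (437), blood (349) and spleen (90.8). The gap to liver (SD 39, n = 3) was small beside the one to lymph node and was not tested. Cxcl12 itself, a stromal product, was read at 10.8, 9.21 and 9.15 TPM in bone marrow and 0.05, 0.05 and 0.12 in lymph node.

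Ccr7 and Cxcr5 were lower. Ccr7 (ENSMUSG00000037944), a receptor for entry into lymph nodes, stood at 41.3, 44.8 and 39.7 TPM in bone marrow and 198, 197 and 195 in lymph node, a mean 4.69 times lower (log2 difference -2.21, SE 0.05, limma adjusted p 1.5e-07), and bone marrow was the lowest of the 6 organs. It stayed lower after T cell scaling, with a difference of -1.62. Cxcr5, the receptor that guides cells to B cell follicles, was lower as well (17.4 ± 3.06 TPM in bone marrow and 42.8 ± 3.14 in lymph node; log2 difference -1.26, SE 0.12, limma adjusted p 0.000172; T cell scaled -0.69).

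Cxcr3 and Ccr2 were higher. Cxcr3, which responds to interferon-induced chemokines, was at 141, 143 and 131 TPM in bone marrow and 35.3, 34.8 and 36.9 in lymph node. The log2 difference was 1.93 (SE 0.05, limma adjusted p 2.82e-07, T cell scaled 2.50). Its bone marrow mean was the highest of the 6 organs, with liver (120 TPM) and lung (107 TPM) next, and those gaps were not tested. Ccr2, a receptor for monocyte chemoattractants that is also carried by monocytes, was at 124 ± 2.37 TPM in bone marrow and 43.6 ± 1.05 in lymph node (log2 difference 1.49, SE 0.039, limma adjusted p 2.99e-07; T cell scaled 2.07). Among integrin chains, Itgb1, the common beta 1 chain, was 2.6 times higher (505 ± 4.79 TPM in bone marrow and 194 ± 0.864 in lymph node; log2 difference 1.37, SE 0.021, limma adjusted p 3.47e-08; T cell scaled 1.96), Itgb7, the beta 7 chain of gut homing integrins, differed by 0.22, and Itgae, the CD103 chain that binds epithelial cadherin, was lower (49.7 ± 1.09 TPM in bone marrow and 104 ± 2.98 in lymph node; log2 difference -1.05, SE 0.041, limma adjusted p 1.83e-06; T cell scaled -0.48). Ccr9, the receptor of gut homing cells, was 2.56 times lower and Cxcr6, found on tissue T cells, 1.65 times higher.

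Of 24 trafficking receptors and integrins in all, 11 were higher, 9 lower and 4 not called, and their median of 0.044 turned to -0.07 without the abundant RNA classes. The exit receptor S1pr1 showed almost no change, at 199, 191 and 197 TPM in bone marrow and 213, 209 and 206 in lymph node (log2 difference -0.097, SE 0.029, limma adjusted p 0.0299). That call was lost under 8 of the 15 alternatives tried, and T cell scaling turned the sign to 0.49. Klf2, the transcription factor that drives S1pr1, did differ. It stood at 771, 766 and 791 TPM in bone marrow and 185, 179.6 and 192 in lymph node. That was 4.18 times higher in bone marrow (log2 difference 2.06, SE 0.03, limma adjusted p 2.85e-08, T cell scaled 2.65). Its bone marrow mean was above every other organ mean, with liver (643 ± 70.1 TPM) and blood (627 TPM) next. Those gaps were not tested. Neutrophils and monocytes carry CXCR4 and CCR2 too; their lists were higher in the same 3 libraries, and their part in these values was not tested.

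**Figure D3:**
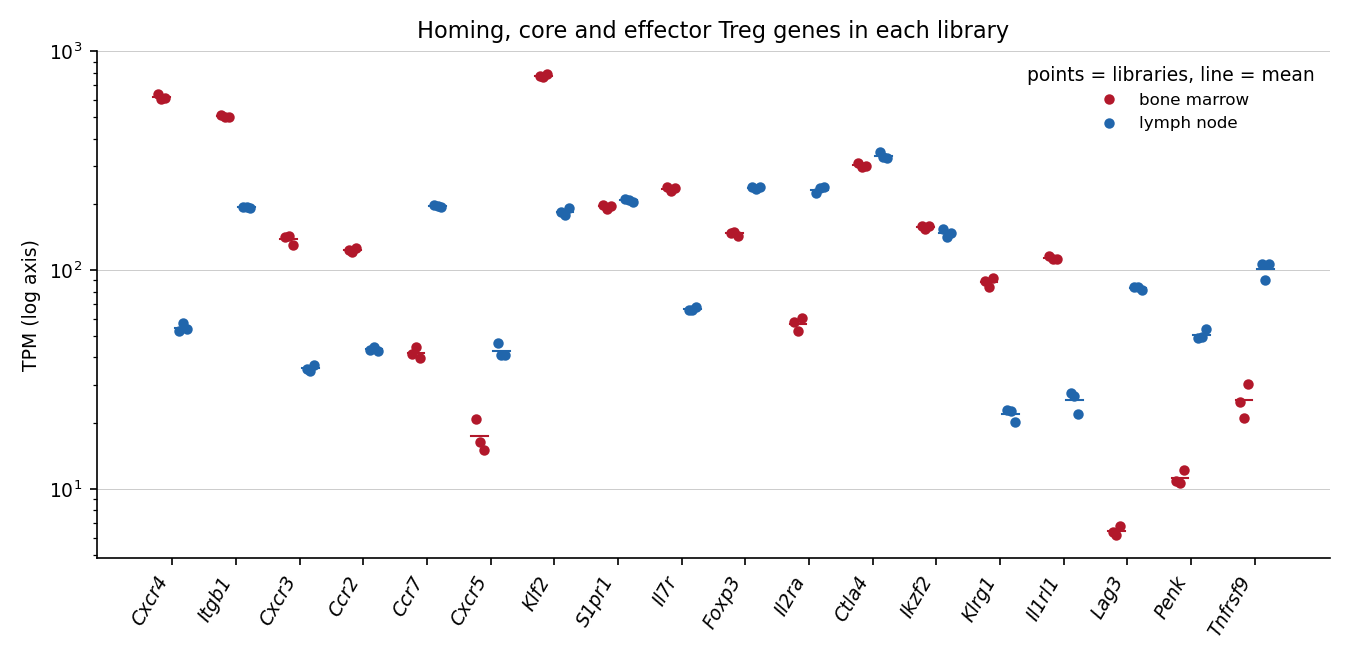
TPM (log axis) of 18 homing, core and effector Treg genes in each of the 3 bone marrow (red) and 3 lymph node (blue) libraries; points are libraries and short lines their mean. Cxcr4 (619.8 against 54.7 TPM) and Klf2 (776 against 185 TPM) lie higher in bone marrow, Lag3 (6.46 against 83.1 TPM) and Il2ra (57.1 against 234 TPM) lie lower, and S1pr1 and Ikzf2 lie close together.

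Genes of the resting T cell state were mostly lower. In a list of 18 resting and homing genes, 14 were lower, 3 were higher and 1 was not called, with a median of -1.06 (-0.48 after T cell scaling, where 12 were lower), and 5 of the 18 stood below all 15 other libraries, as did 0.937% of all genes. Tcf7 and Lef1, partner transcription factors of naive and memory T cells, were at 190.03 ± 3.88 TPM in bone marrow and 431 ± 3.68 in lymph node and at 58.6 ± 1.41 TPM in bone marrow and 139 ± 6.65 in lymph node (log2 differences -1.18 and -1.23; T cell scaled -0.59 and -0.65). Satb1, a chromatin organizer of T cells, was at 44.6, 43 and 45.6 TPM in bone marrow and 146, 150.01 and 147 in lymph node (log2 difference -1.71, SE 0.039, limma adjusted p 1.57e-07; T cell scaled -1.13), and its bone marrow mean was the lowest of the 6 organs. Id3, an inhibitor of E proteins that Treg cells rely on, was 3.16 times lower, and Igfbp4, a binding protein of insulin-like growth factors found in naive T cells, 5.41 times lower. Dapl1, a marker of naive T cells, fell from 12.6 to 0.91 TPM.

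Against that direction, Il7r, the interleukin 7 receptor that keeps resting lymphocytes alive, was at 239.6, 229 and 237 TPM in bone marrow and 65.7, 65.6 and 67.9 in lymph node (log2 difference 1.81, SE 0.034, limma adjusted p 6.71e-08; T cell scaled 2.39). Its lowest bone marrow value was over 3 times the highest lymph node value. Il7r is also a marker of B cell precursors, and Rag1, the recombinase of developing lymphocytes, stood at 10.6 TPM in bone marrow and 0.0667 in lymph node, with Igll1, the surrogate light chain, at 24.9 and 0.0133; their part in the Il7r value was not tested. The lists overlap in Il7r and Lef1, which count in both.

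Treg core genes were lower as a group, but unevenly. Of 18, 14 were lower, 2 higher and 2 not called, with a median of -0.87. The median was -0.33 after T cell scaling, with 11 lower and 7 higher. Foxp3 itself was 1.62 times lower (log2 difference -0.69, SE 0.028, limma adjusted p 2.16e-06), close to Cd3e (-0.68) and Cd4 (-0.56), and T cell scaling left a difference of -0.10.

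The interleukin 2 receptor alpha chain fell further than Foxp3. Il2ra (ENSMUSG00000026770) was at 57.9, 52.8 and 60.7 TPM in bone marrow and 225, 237 and 239 in lymph node (log2 difference -2.02, SE 0.057, limma adjusted p 4.21e-07), 4.09 times lower and the lowest of the 6 organs (difference after T cell scaling -1.43). Il2rb, the signalling chain that the receptor shares with interleukin 15, was 2.1 times lower (log2 difference -1.07; T cell scaled -0.48), and Socs2, a feedback gene of cytokine signalling, 2.65 times lower. Lrrc32, which encodes GARP, the surface anchor of latent TGF-beta, was at 17.9, 16.4 and 17.2 TPM in bone marrow and 88, 88.9 and 89.5 in lymph node (log2 difference -2.31, SE 0.051, limma adjusted p 1.32e-07; T cell scaled -1.74).

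Further core genes moved in the same direction. Gpr83, a receptor known as a Treg marker, was at 7.09, 4.93 and 6.52 TPM in bone marrow and 61.5, 57.7 and 58.8 in lymph node (log2 difference -3.08, SE 0.12, limma adjusted p 1.78e-06; T cell scaled -2.54), the largest fall in the core list. Izumo1r, the folate receptor 4 of Treg cells, was 3.52 times lower, Nt5e, the CD73 enzyme that makes adenosine, 2.45 times lower, and Ikzf4, a Foxp3 partner, 2.16 times lower. Tnfrsf4, which encodes OX40, was at 177 ± 1.39 TPM in bone marrow and 311 ± 8.66 in lymph node (log2 difference -0.81; T cell scaled -0.22).

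Ctla4, Tigit and Ikzf2, also in the core list, differed little as deposited. Ctla4, the inhibitory receptor that strips costimulatory ligands, was at 309.6, 297 and 301 TPM in bone marrow and 348, 328 and 327 in lymph node (log2 difference -0.14, SE 0.033, limma adjusted p 0.00972), and T cell scaling turned the sign to 0.44. The Ctla4 call was lost with median ratio scaling (limma adjusted p 0.137), when all 18 libraries set the error (0.086) and with plain eBayes (0.0685). Tigit was at 138 ± 4.66 TPM in bone marrow and 145 ± 2.75 in lymph node and was not called (limma adjusted p 0.174; 0.52 after T cell scaling). Ikzf2, which encodes Helios, was at 158 ± 2.65 TPM in bone marrow and 148 ± 5.94 in lymph node and was not called either (limma adjusted p 0.0833), and differed by 0.68 after T cell scaling. The 2 core genes called higher were Nrp1, the neuropilin of thymus-derived Treg cells (125 ± 4.87 TPM in bone marrow and 88.4 ± 2.22 in lymph node; log2 difference 0.49, SE 0.042, limma adjusted p 8.48e-05; T cell scaled 1.08), and Entpd1, the CD39 enzyme that degrades ATP (39.5 ± 3.12 TPM in bone marrow and 24.6 ± 3.1 in lymph node; log2 difference 0.67, SE 0.10, limma adjusted p 0.00174; T cell scaled 1.23). Entpd1 is also read from myeloid cells, and its part from them was not tested; its call was lost when all 18 libraries set the error (limma adjusted p 0.157).

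Genes of effector and tissue Treg cells split. Of 30, 15 were higher, 13 lower and 2 not called, with a median of 0.41 (0.98 after T cell scaling, with 17 higher and 12 lower). Klrg1, a receptor of terminally differentiated T cells, was at 89, 83.8 and 92.3 TPM in bone marrow and 23, 22.9 and 20.4 in lymph node, 4.0 times higher (log2 difference 1.96, SE 0.067, limma adjusted p 9.86e-07; T cell scaled 2.53). Il1rl1, the interleukin 33 receptor ST2 of tissue Treg cells, was at 116, 112 and 112 TPM in bone marrow and 27.6, 26.7 and 22.1 in lymph node (log2 difference 2.12, SE 0.085, limma adjusted p 1.99e-06; T cell scaled 2.69). In both genes every bone marrow library lay above every lymph node library, as in 28.5% of all genes tested (29.7% lay the other way round). For Il1rl1 only liver (156 TPM) and lung (266 TPM) had higher means than bone marrow.

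Il1rl1 is also a gene of mast cells and basophils. In the bone marrow libraries Mcpt8, a basophil protease, stood at 62.4 TPM and Prss34, another basophil protease, at 91.6 TPM, against 0.0433 and 0.06 TPM in lymph node. Their part in the Il1rl1 value was not tested. Il18r1, an alarmin receptor of Treg and T helper cells, was 1.96 times higher, and Lgals1, a galectin that restrains T cells, 1.46 times higher. Cd44, the hyaluronan receptor of antigen-experienced cells, was 1.64 times higher. The Cd44 mean was 124 TPM in bone marrow and 269 TPM in blood, and the part of other cells in it was not tested.

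S100 and galectin genes of this list, which myeloid cells share, also stood higher. S100a4 was at 1018 ± 24.5 TPM in bone marrow and 356 ± 5.53 in lymph node (log2 difference 1.51, SE 0.025, limma adjusted p 4.47e-08; T cell scaled 2.10) and S100a6 at 415 ± 27.9 TPM in bone marrow and 88.8 ± 12.2 in lymph node (log2 difference 2.22, SE 0.10, limma adjusted p 3.51e-06; T cell scaled 2.80). Lgals3 ranged more widely in lymph node, at 154, 179 and 156 TPM in bone marrow and 25.8, 13.4 and 9.18 in lymph node, and was still separate (log2 difference 3.38, SE 0.32, limma adjusted p 0.00015; T cell scaled 3.94).

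Other effector genes were lower. Lag3 (ENSMUSG00000030124), a checkpoint receptor that binds MHC class II, was at 6.4, 6.15 and 6.82 TPM in bone marrow and 83.6, 84 and 81.6 in lymph node, 12.9 times lower (log2 difference -3.50, SE 0.06, limma adjusted p 4.94e-08). Its difference after T cell scaling was -2.95, and the fall was the largest in the effector list on both scales. Penk, which encodes the opioid precursor proenkephalin, was at 11.3 ± 0.839 TPM in bone marrow and 50.8 ± 2.55 in lymph node, and Tnfrsf9, the costimulatory receptor 4-1BB, at 25.4 ± 4.62 TPM in bone marrow and 101 ± 9.86 in lymph node (log2 differences -2.08 and -1.96). Dusp4, a phosphatase induced by antigen receptor signalling, was 3.68 times lower.

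Icos, a costimulatory receptor, and Pdcd1, which encodes PD-1, were 1.95 and 2.04 times lower. Il10, the suppressive cytokine interleukin 10, was at 11.2, 9.36 and 10.5 TPM in bone marrow and 18.7, 19.7 and 24 in lymph node (log2 difference -0.93, SE 0.12, limma adjusted p 0.000574; T cell scaled -0.39), and Ccr8, the receptor of activated tissue Treg cells, was at 19.5 ± 0.136 TPM in bone marrow and 38.1 ± 0.584 in lymph node (log2 difference -0.93, SE 0.05, limma adjusted p 8.51e-06). For these 4 genes T cell scaling left smaller differences, between -0.43 for Pdcd1 and -0.36 for Ccr8. Areg, a repair factor, was at 10.7, 16.1 and 10.1 TPM in bone marrow and 6.98, 9.55 and 7.24 in lymph node. Its groups did not overlap, but the test missed the threshold (limma adjusted p 0.0503), and 7 of the alternatives called it higher.

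Transcription factors of effector Treg cells split. Of 20, 10 were higher, 8 lower and 2 not called (median 0.13). After T cell scaling 14 were higher and 1 lower (median 0.70). Over all genes tested that scaling gave 67.5% higher and 4.81% lower, with a median of 0.51. Without the abundant RNA classes 9 of the 20 were higher and 8 lower (median 0.017). Tbx21, the T helper type 1 factor T-bet, was at 11.5, 11.2 and 13.9 TPM in bone marrow and 2.92, 2.22 and 3.75 in lymph node (log2 difference 1.75, SE 0.17, limma adjusted p 0.00016; T cell scaled 2.24). Gata3, the type 2 factor, was at 92.6 ± 1.88 TPM in bone marrow and 57.1 ± 3.26 in lymph node (log2 difference 0.69, SE 0.051, limma adjusted p 4.35e-05; T cell scaled 1.27), and Rora, a factor of tissue Treg cells and innate lymphoid cells, at 38.1 ± 1.58 TPM in bone marrow and 15.9 ± 0.731 in lymph node (log2 difference 1.22, SE 0.064, limma adjusted p 7.19e-06; T cell scaled 1.78). Id2, an inhibitor of E proteins in effector cells, was 2.66 times higher and Bhlhe40, a repressor in activated T cells, 2.54 times higher.

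Batf, Irf4 and Maf, 3 factors of activated Treg cells, were lower as deposited (log2 differences -0.43, -0.53 and -0.22). After T cell scaling their differences were 0.15, 0.042 and 0.36. On that scale Maf was called higher (limma adjusted p 0.000104), and Batf (0.0522) and Irf4 (0.551) were not called. Zeb2, a factor of terminal effector T cells and of myeloid cells, was at 14.4, 15.1 and 14 TPM in bone marrow and 1.08, 0.67 and 1.36 in lymph node, while blood held 62.2 TPM. Csf1r, the receptor that defines monocytes and macrophages, stood at 24.8 TPM in bone marrow and 0.297 in lymph node, and its cells' part in the Zeb2 value was not tested.

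**Figure D4:**
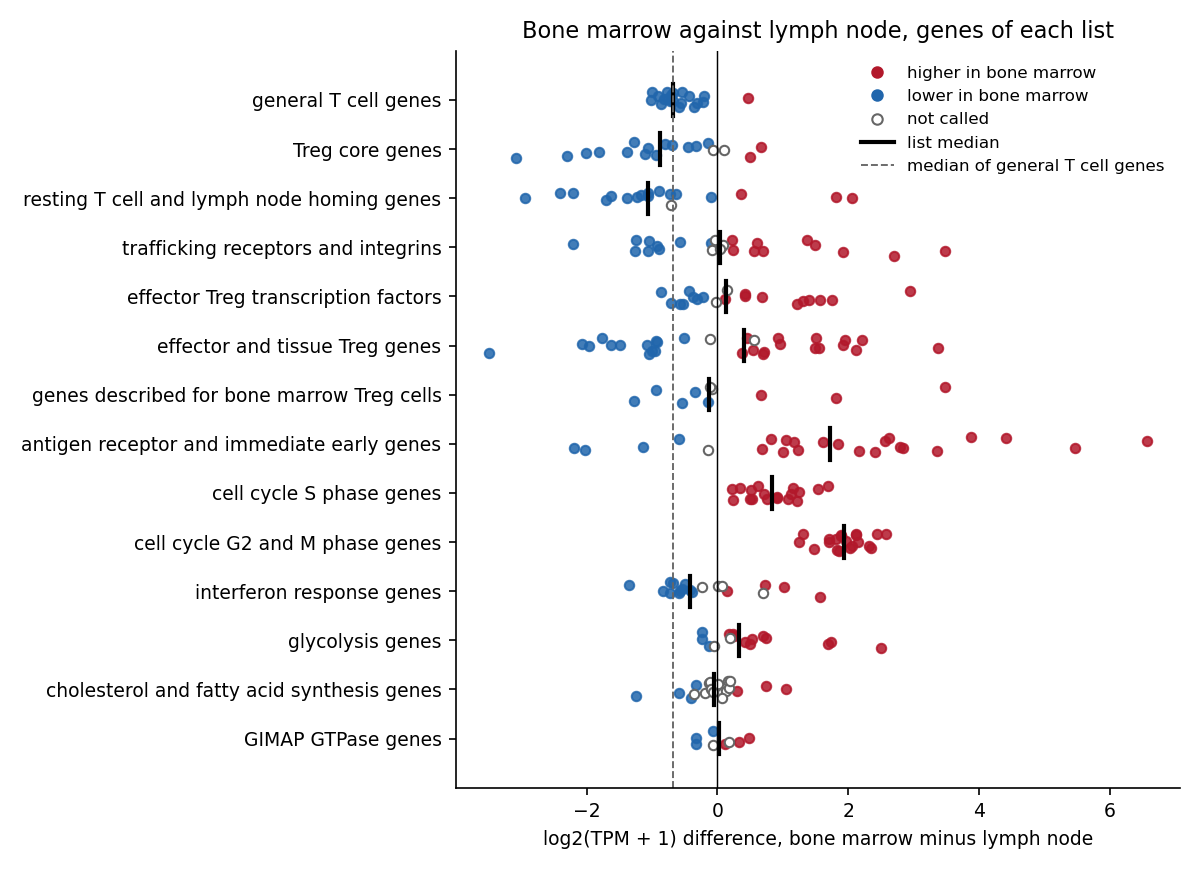
Difference on the log2(TPM + 1) scale, bone marrow minus lymph node, of each tested gene in 14 lists; filled points passed the test (red higher, blue lower), open points did not, black bars are list medians and the dashed line is the median of general T cell genes (-0.68). All cell cycle genes lie right of 0, resting and core genes lie mostly left, and trafficking and effector lists span both sides.

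A list of 10 genes described for bone marrow Treg cells gave no common direction: 3 were higher, 5 lower and 2 not called (median -0.13; 0.44 after T cell scaling). The 3 higher genes were Cxcr4, Il7r and Entpd1, given above. Slamf1, the CD150 marker used for stem cells and for marrow Treg cells, was at 30.2, 29.9 and 26.5 TPM in bone marrow and 40.3, 45.8 and 42 in lymph node (log2 difference -0.55, SE 0.076, limma adjusted p 0.00102), with a T cell scaled difference of 0.024. Tnfsf11, which encodes the osteoclast factor RANKL, was 1.27 times lower (log2 difference -0.34, SE 0.064, limma adjusted p 0.00456). After T cell scaling Tnfsf11 was called higher, by 0.23 (limma adjusted p 0.016), and in the fit of all 18 libraries it was not called (0.147). Tgfb1, the cytokine TGF-beta 1, was at 171 ± 7.12 TPM in bone marrow and 185 ± 5.59 in lymph node and Ada, adenosine deaminase, at 7.18 ± 1.76 TPM in bone marrow and 7.62 ± 1.5 in lymph node, neither called (limma adjusted p 0.052 and 0.75).

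Immediate early genes, which are switched on within minutes of a signal, were higher. Of 24 antigen receptor and immediate early genes, 19 were higher, 4 lower and 1 not called, with a median of 1.73 (2.31 after T cell scaling). Fosb (ENSMUSG00000003545) stood at 367, 363 and 356 TPM in bone marrow and 2.86, 2.78 and 2.81 in lymph node, 128 times higher (log2 difference 6.57, SE 0.046, limma adjusted p 2.39e-09; T cell scaled 7.08). Fos was at 2184, 2199.6 and 2209.7 TPM in bone marrow and 48.7, 49.2 and 48.3 in lymph node, 45.1 times higher (log2 difference 5.47, SE 0.021, limma adjusted p 1.31e-10; T cell scaled 6.05); both encode subunits of the AP-1 factor. Their lymph node values were the lowest of the 6 organs, where Fosb ranged up to 116 TPM (lung) outside bone marrow and Fos up to 844 TPM (blood).

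Partner and feedback genes followed. Jun, another AP-1 subunit, was at 354 ± 6.47 TPM in bone marrow and 23.2 ± 1.41 in lymph node (log2 difference 3.87, SE 0.051, limma adjusted p 1.86e-08; T cell scaled 4.45) and Junb, its paralog, at 1559 ± 17.5 TPM in bone marrow and 263 ± 4.62 in lymph node (log2 difference 2.56, SE 0.021, limma adjusted p 3.07e-09; T cell scaled 3.15). Dusp1, the phosphatase that ends MAP kinase signals, was 10.4 times higher and Zfp36, which degrades cytokine mRNA, 7.0 times higher. Egr1, an early growth response factor, was at 247, 239.8 and 244 TPM in bone marrow and 39.2, 39.1 and 38.2 in lymph node, and in no other organ did its mean exceed 47.3 TPM. Nr4a1, the orphan receptor Nur77, was 2.35 times higher, with bone marrow (557 TPM) below liver (3290 TPM), lung (786 TPM) and blood (627 TPM). Cd69, an early activation receptor that blocks S1PR1, was 3.09 times higher.

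The list did not move as 1 block. Nr4a3, a sister of Nr4a1, was at 4.38, 3.24 and 4.4 TPM in bone marrow and 20.1, 20.9 and 24.4 in lymph node (log2 difference -2.19, SE 0.13, limma adjusted p 1.47e-05). Egr3 and Egr2, factors induced by antigen receptor signals through calcineurin, were at 5.29, 6.13 and 6.05 TPM in bone marrow and 27.6, 26.5 and 26.2 in lymph node and at 8.9, 6.27 and 8.47 TPM in bone marrow and 17.2, 20.7 and 17.4 in lymph node (log2 differences -2.02 and -1.14). These 3 genes kept their sign after T cell scaling, at -1.67, -1.49 and -0.60. Neutrophils and monocytes express Fos, Junb, Dusp1 and Zfp36 at high levels, and Il1b, a cytokine of both cell types, stood at 213 TPM in bone marrow against 1.01 in lymph node. The means of Il1b, Fosb and Fos were 1576, 67.9 and 844 TPM in blood and 60.1, 116 and 486 TPM in lung. They were 7.17, 90.9 and 369 TPM in liver and 22.5, 12.6 and 134 TPM in spleen. The part of these cells in the bone marrow values was not tested.

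Cell cycle genes were higher in every member of both lists. S phase genes, which serve DNA replication, were higher in 18 of 18, by a median of 0.83, and G2 and M phase genes, which serve mitosis, in 20 of 20, by a median of 1.93; 12 and 18 of them stood above all 15 other libraries, where 6.03% of all genes did. The G2 and M genes summed to 826 to 861 TPM in bone marrow and to 191 to 202 TPM in lymph node. Liver came next, at 263 to 303 TPM, and blood was lowest, at 45.1 to 53.6 TPM.

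Mitotic genes gave the wider differences. Mki67, a marker of cycling cells, was at 84, 81.2 and 77.7 TPM in bone marrow and 25.4, 23.4 and 23.4 in lymph node (log2 difference 1.71, SE 0.057, limma adjusted p 8.82e-07; T cell scaled 2.28). Cdk1 (ENSMUSG00000019942), the kinase that starts mitosis, was at 70.1, 71.1 and 64.4 TPM in bone marrow and 12.1, 12.2 and 11.1 in lymph node (log2 difference 2.44, SE 0.066, limma adjusted p 3.47e-07; T cell scaled 3.00), and Ube2c, which marks cyclins for destruction, at 79.2, 71.7 and 64.9 TPM in bone marrow and 9.92, 11.4 and 12.4 in lymph node (log2 difference 2.58, SE 0.10, limma adjusted p 1.98e-06; T cell scaled 3.14). Neither gene overlapped between groups, and each bone marrow value was over 5 times the lymph node mean. Ccnb1, the mitotic cyclin, was 5.51 times higher, Birc5, which encodes survivin, 5.38 times, Cdc20, an activator of the anaphase promoting complex, 4.46 times and Top2a, the DNA topoisomerase of dividing cells, 3.62 times.

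S phase genes ranged from a difference of 0.22 to 1.69. Rrm2, the ribonucleotide reductase subunit made in S phase, was at 87.1 ± 3.7 TPM in bone marrow and 26.3 ± 1.08 in lymph node (log2 difference 1.69, SE 0.055, limma adjusted p 7.84e-07; T cell scaled 2.26) and Cdc6, which loads the replicative helicase, at 16.1 ± 2.26 TPM in bone marrow and 4.88 ± 0.3 in lymph node (log2 difference 1.53, SE 0.12, limma adjusted p 5.27e-05; T cell scaled 2.05). The helicase subunits Mcm2 and Mcm4 were close to lymph node, at 55.6 ± 1.41 TPM in bone marrow and 47.5 ± 2.54 in lymph node and at 58.6 ± 0.767 TPM in bone marrow and 49.8 ± 1.05 in lymph node, and Pcna, the polymerase clamp, was 1.45 times higher. The call for Mcm2 was lost without the abundant RNA classes (limma adjusted p 0.127), and when all 18 libraries set the error neither Mcm2 (0.621) nor Mcm4 (0.0763) was called. Marrow precursors of neutrophils, red cells and B cells divide; Elane, a protease of neutrophil precursors, stood at 366 TPM and Klf1, the factor of red cell precursors, at 28.1 TPM in bone marrow, against 0.333 and 0.0633 TPM in lymph node. Their part in the cell cycle values was not tested.

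**Figure D5:**
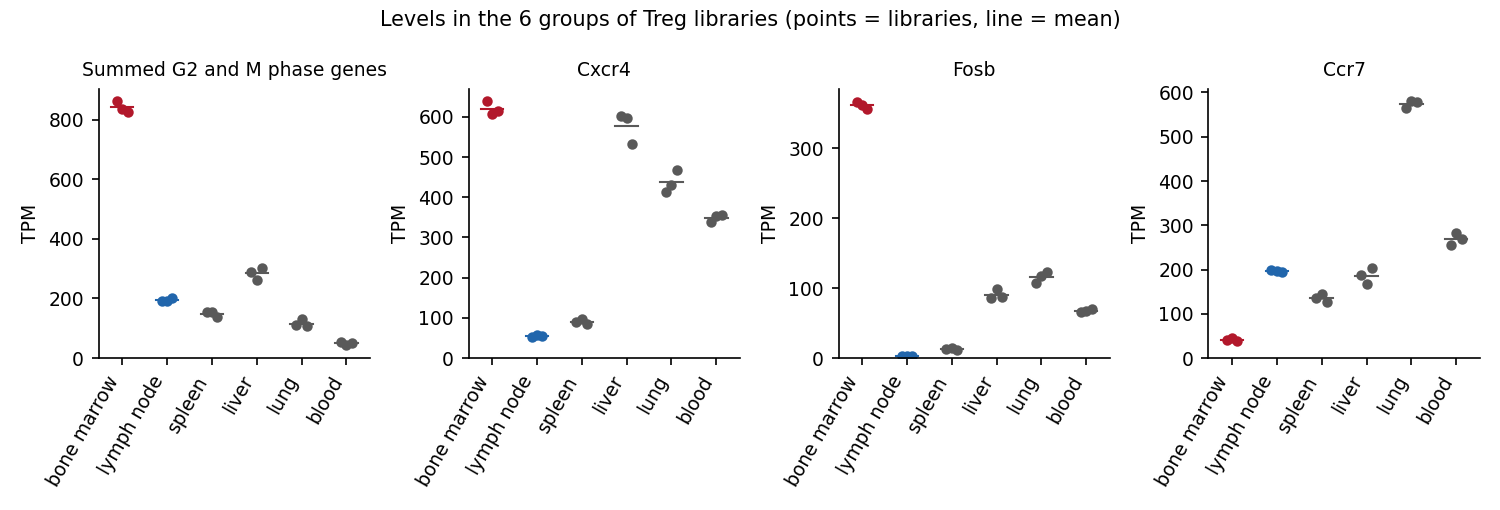
Summed TPM of the 20 G2 and M phase genes, and TPM of Cxcr4, Fosb and Ccr7, in each of the 18 libraries by organ (3 points a group, line = mean; linear axes from 0). Bone marrow is highest in the first 3 panels, by the narrowest margin over liver for Cxcr4 (619.8 against 577 TPM), and lowest for Ccr7 (41.9 TPM).

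Because the mitotic genes were higher together, their promoters were read from RefSeq (GRCm38.p6), in a window of 300 bases from 250 before to 50 after the start, on both strands, each motif counted apart from the others. Mitotic promoters are known for pairs of CCAAT boxes, bound by NF-Y, and for the cell cycle homology region TTTGAA, bound by the DREAM and MuvB complexes. Of 16 G2 and M genes with an entry, 15 held CCAAT, against 41.1% of 27025 genes, and 12 held TTTGAA, against 20.2%. The related TTTAAA was in 6 of 16 (14.9% of all genes). Ccna2, Aurkb, Kif20a and Tpx2 had no entry. For S phase genes the forms TTCCCGC and TTGGCGC of the E2F site were in 5 and 4 of 14 (5.29% and 2.85% of all genes). A match describes letters in the window and does not show binding.

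The 130 bases before the start of 3 mitotic genes show these pairs, 5′ to 3′ on the gene's strand, with each CCAAT box in capitals (ATTGG when it lies on the other strand) and each copy of the homology region in capitals too (TTTGAA, or TTCAAA on the other strand). Cdk1 lies at chr10:69352913-69353042 (minus strand), Cdc20 at chr4:118437344-118437473 (minus strand) and Ube2c at chr2:164769799-164769928 (plus strand), and each holds 2 CCAAT matches.
Cdk1: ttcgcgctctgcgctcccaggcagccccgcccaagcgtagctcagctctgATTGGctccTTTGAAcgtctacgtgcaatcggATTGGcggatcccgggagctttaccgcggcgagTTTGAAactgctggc
Cdc20: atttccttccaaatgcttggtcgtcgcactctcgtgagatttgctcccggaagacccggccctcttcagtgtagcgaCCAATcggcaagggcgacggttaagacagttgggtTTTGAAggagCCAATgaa
Ube2c: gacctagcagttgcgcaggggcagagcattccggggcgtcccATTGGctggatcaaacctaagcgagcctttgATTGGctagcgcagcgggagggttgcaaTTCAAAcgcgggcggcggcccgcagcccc
In this stretch Cdk1 held 2 matches to TTTGAA, and Cdc20 and Ube2c held 1 each; the Cdk1 and Cdc20 levels were 5.8 and 4.46 times higher in bone marrow.

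Metabolic lists were mixed. Of 16 glycolysis genes, 11 were higher, 3 lower and 2 not called, with a median of 0.34 (0.92 after T cell scaling). Slc16a3, the lactate exporter, was at 45.9 ± 2.73 TPM in bone marrow and 7.33 ± 1.01 in lymph node (log2 difference 2.50, SE 0.10, limma adjusted p 2.24e-06; T cell scaled 3.04), Slc2a3, a glucose transporter, 3.27 times higher and Hk2, the inducible hexokinase, 4.24 times higher, while Ldha, lactate dehydrogenase, was 1.18 times lower and took the opposite sign after T cell scaling (0.34). All 3 higher genes are also made by neutrophils and monocytes, whose part was not tested. Of 20 cholesterol and fatty acid synthesis genes, 13 were not called, 3 were higher and 4 lower (median -0.046), and of 8 GIMAP genes, GTPases of lymphocyte survival, 3 were higher and 3 lower.

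Interferon response genes leaned lower as deposited. Of 19 members that passed the filter, out of 20, 11 were lower, 4 higher and 4 not called. Their median of -0.42 turned to 0.15 after T cell scaling, which moved the median over all genes from -0.026 to 0.51. Usp18, the brake of interferon signalling, was at 10.3, 9.95 and 10.2 TPM in bone marrow and 25.9, 28.5 and 28.6 in lymph node (log2 difference -1.36, SE 0.07, limma adjusted p 6.64e-06; -0.81 after T cell scaling). Rsad2, the antiviral enzyme viperin, moved the other way, at 8.98 ± 0.273 TPM in bone marrow and 2.37 ± 0.165 in lymph node (log2 difference 1.56, SE 0.10, limma adjusted p 2.32e-05; T cell scaled 2.04).

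The 10 largest increases, among genes that reached 10 TPM in bone marrow, were Ngp, S100a9, Lcn2, Camp, S100a8, Ltf, Retnlg, Chil3, Mpo and Wfdc21. S100a9, a subunit of calprotectin, was at 20689, 20691 and 20725 TPM in bone marrow and 6.71, 19.6 and 33.1 in lymph node (log2 difference 10.20, SE 0.51, limma adjusted p 1.17e-05; T cell scaled 10.77), and blood was next among the other organs, at 9048 TPM. Ngp, a granule protein of maturing neutrophils, was at 5348, 5271 and 5272 TPM in bone marrow and 0.17, 4.25 and 7.68 in lymph node (log2 difference 10.46, SE 0.70, limma adjusted p 4.81e-05; T cell scaled 10.94). For both genes the bone marrow replicates lay close together, while the lymph node replicates differed severalfold. Wfdc21 was listed at 0 in every lymph node library and at 355 ± 21.9 TPM in bone marrow.

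Among genes of the earliest granules, Mpo, myeloperoxidase, was at 542, 517 and 546 TPM in bone marrow and 0, 0.26 and 0.71 in lymph node (log2 difference 8.70, SE 0.18, limma adjusted p 1.03e-07; T cell scaled 9.07) and Elane, neutrophil elastase, at 359.8, 376 and 363 TPM in bone marrow and 0, 0.22 and 0.78 in lymph node, while blood held 3.21 and 2.37 TPM. Bone marrow and blood were not tested against each other. Csf3r, the receptor of the growth factor G-CSF, was at 730.1 TPM in blood against 145 in bone marrow and 0.22 TPM in lymph node libraries, and Cxcr2, the receptor that draws neutrophils out of the marrow, at 249, 56.2 and 0.123 TPM. The summed mature neutrophil list was lower in blood, at a mean of 19878 TPM against 35705 TPM in bone marrow. Most of both sums was S100a9 (20702 TPM in bone marrow and 9048 in blood) and S100a8 (12865 and 7184 TPM). Members of that list differed in direction. Il1b, like Csf3r and Cxcr2, was higher in blood (213 TPM in bone marrow and 1576 in blood), and Retnlg was lower (1398 and 769 TPM). Prg2, the major basic protein of eosinophils, was at 177 TPM in bone marrow and at 0.0967 in lymph node. In the precursor granule list, Srgn and Cst7 are also T cell genes. Srgn was at 1021 ± 30.7 TPM in bone marrow and 699 ± 25.3 in lymph node and at 1471 TPM in blood, and Cst7 was lower in bone marrow, at 49.3 ± 4.71 TPM in bone marrow and 61.4 ± 2.82 in lymph node (log2 difference -0.31, SE 0.078, limma adjusted p 0.0143), a call that turned to higher after T cell scaling (log2 difference 0.26). It was lost in the fit of all 18 libraries (limma adjusted p 0.394) and without lymph node replicate 1 (limma adjusted p 0.0527).

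The promoters of granule genes are known to bind PU.1, at a core of GAGGAA. That core was in 10 of 15 granule genes with an entry, against 31.3% of all genes in the same window, and TTGCNNAA, a form of the C/EBP site, in 6 of 15 (12.2% of all genes). The 130 bases before the start of the neighbouring genes Elane, at chr10:79886182-79886311 (plus strand), and Prtn3, at chr10:79879537-79879666 (plus strand), are shown with GAGGAA in capitals, since both were near 0 in lymph node. Prtn3, proteinase 3, was at 273, 281 and 267 TPM in bone marrow and 0, 0.39 and 0.53 in lymph node.
Elane: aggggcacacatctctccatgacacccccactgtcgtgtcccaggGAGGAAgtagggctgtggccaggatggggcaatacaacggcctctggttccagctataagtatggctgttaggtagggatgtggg
Prtn3: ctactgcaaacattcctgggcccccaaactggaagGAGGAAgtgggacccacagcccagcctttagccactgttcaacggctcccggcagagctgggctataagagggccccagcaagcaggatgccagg
Each stretch held 1 match.

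With at least 10 TPM required in both groups, the largest increases were S100a9, S100a8, Lyz2, Hba-a2, Hba-a1, Hbb-bs, Fos, Ly6c2, Hspa1b and Lilrb4a. Lyz2, the lysozyme of macrophages and neutrophils, was at 2809 ± 67.3 TPM in bone marrow and 13.1 ± 3.37 in lymph node. The haemoglobin chains Hba-a2 and Hbb-bs were at 2019 ± 67.5 TPM in bone marrow and 22.8 ± 0.737 in lymph node and at 2442 ± 110 TPM in bone marrow and 32.7 ± 3.86 in lymph node, and liver exceeded bone marrow in both (4120 and 4976 TPM). Hba-a1 and Hba-a2 are near-identical copies, as are Hspa1b and its neighbour, so reads may be shared within each pair. Gata1, a factor of red cell and platelet precursors, went against the erythroid list, at 18.4, 22.2 and 21 TPM in bone marrow and 35.4, 36.3 and 36.1 in lymph node (log2 difference -0.78, SE 0.077, limma adjusted p 0.000181; T cell scaled -0.21), with spleen at 25.6 and blood at 22 TPM. The Gata1 call was lost when all 18 libraries set the error (limma adjusted p 0.0874).

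Falls were smaller than increases. The 10 largest were Apol9b, Apol9a, Lag3, Gpr83, Dapl1, Lad1, Nsg2, St8sia1, Spsb1 and Gsta4. Apol9b, an apolipoprotein L gene induced by interferon, was at 3.77, 1.53 and 3.5 TPM in bone marrow and 76.5, 91.7 and 86.5 in lymph node (log2 difference -4.50, SE 0.24, limma adjusted p 7.86e-06), and its near-identical copy Apol9a at 0.847 ± 0.854 TPM in bone marrow and 22.1 ± 3.1 in lymph node, so that reads may be shared between them. Nsg2, a vesicle protein of neurons, was at 30.5, 31.3 and 29.4 TPM in bone marrow and 197, 200.2 and 204 in lymph node (log2 difference -2.68, SE 0.041, limma adjusted p 3.01e-08; T cell scaled -2.11) and was lowest in bone marrow among the 6 organs. After T cell scaling the 10 differences ran from -2.02 (Gsta4) to -4.00 (Apol9b). Their sign could not have changed, since they were picked as the largest falls and the scaling shifts differences by far less.

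With at least 10 TPM in both groups, Igfbp4, Tbc1d4, Lrrc32, Lta, Ccr7, Penk, Ctsw, Ecm1 and Il2ra followed Nsg2. Tbc1d4, a regulator of glucose transporter traffic, was at 19, 20.2 and 17.3 TPM in bone marrow and 98.2, 102 and 105 in lymph node (log2 difference -2.38, SE 0.067, limma adjusted p 4.06e-07; T cell scaled -1.80). Lta, the cytokine lymphotoxin alpha that builds lymph nodes, was at 15, 14.8 and 13.5 TPM in bone marrow and 74.1, 75.5 and 74.3 in lymph node (log2 difference -2.30, SE 0.057, limma adjusted p 2.29e-07; T cell scaled -1.73), and Ecm1, an extracellular matrix protein of activated T helper cells, was 4.26 times lower.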

How the data were processed

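Poly(A) RNA of sorted mouse Treg cells was measured in 18 libraries, of which the 3 bone marrow and 3 lymph node libraries were compared. The deposited values are TPM (length-corrected transcript shares) for Ensembl gene IDs, 1 table per library. The submitters' processing notes name STAR, RSEM and mm10, with no role, version or annotation given in the sources used here. The library kit is directional, per the labels' protocols, but whether strand was used in counting is not given in the sources used here, so genes overlapping an antisense partner are uncertain. GENCODE M21 names matched 55141 of 55487 IDs; the other 346 were kept without a symbol.

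Differences were tested with limma 3.58.1 (R 4.3.3, eBayes with trend and robust settings) on log2(TPM + 1), a scale that understates the change of low genes, over the 14615 genes that averaged 1 TPM or more in bone marrow or lymph node. Adjusted p-values (Benjamini-Hochberg) under 0.05 were called. The same steps were tested on simulated data. TPM keeps no read depth, so no counting interval is given. No pair of tables held identical values. The correlations of deviations between same-numbered libraries were 0.007, -0.02 and -0.034, so replicate numbers were not taken to pair libraries.

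Named genes are the 10 largest differences per direction with no overlap and at least 10 TPM in the higher group, the same with at least 10 TPM in both groups, and members of 28 gene lists. The rankings left out predicted genes, unnamed IDs and antigen receptor segments. The groups compared, the members and the lists were chosen with earlier results of these data known. Alternatives were another pseudocount, other filters, 3 scalings, all 18 libraries in 1 fit, a replicate block, plain eBayes and leaving out each library. Promoters came from RefSeq (GRCm38.p6). Values of some list members are not reported here.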

Additional observations from a re-analysis of the deposited data

How the results depend on the processing

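The counts of 3627 genes higher and 3524 lower moved with the scale and the error model. T cell scaling gave 9872 and 703, a filter on a mean of 10 TPM gave 2357 higher among 9312 genes, and a fit of all 18 libraries gave 2270 and 1529. The other filters, pseudocount and scalings stayed within 1.5 times both counts. Without 1 library at a time, 3219 to 3390 genes were higher and 2884 to 3211 lower. The replicate block, fitted although the numbers were not taken to pair the libraries, gave 3400 higher and 3185 lower. It ended the S1pr1 call (limma adjusted p 0.0597), added that of Areg (0.0111) and changed no other call of 175 genes examined.

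T cell scaling turned 16 of these 175 genes: Ctla4 to 0.441, Tigit 0.518, Tnfrsf18 0.262, S1pr1 0.489, Irf4 0.042, Batf 0.153, Maf 0.362, Tgfb1 0.467, Slamf1 0.024, Tnfsf11 0.229, Ada 0.435, Ldha 0.344, Cd4 0.029, Cst7 0.263, Ctss 0.023 and Pecam1 0.023. Irf4, Batf, Slamf1, Ada, Cd4, Ctss and Pecam1 were not called on that scale. T cell scaling turned the median of genes described for bone marrow Treg cells to 0.438, of interferon genes to 0.146 and of cholesterol genes to 0.522. The median over all genes was then 0.514. Median ratio scaling turned Tigit to 0.01 and the cholesterol median to 0.028. Without the abundant RNA classes, Ikzf2 turned to -0.021, the trafficking median to -0.07 and the GIMAP median to -0.091. The trafficking median also turned with a filter on 10 TPM (-0.003) and ranged from -0.008 (without bone marrow replicate 1) to 0.046 with 1 library left out. The cytotoxic median turned with that filter (-0.267). The Ada difference ranged from -0.252 (without bone marrow replicate 1) to 0.044 (without lymph node replicate 3). The cause was not tested.

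With 3 libraries per group and no stated origin of the replicates, the tests cover the spread of these libraries alone. Read depth is not known, so values listed at 0 or near it in lymph node do not show absence.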
